A study of Mus musculus with 8 samples.

Results

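The 5 genes that encode the subunits of the transcription factor NF-kB, Rela, Rel, Relb, Nfkb1 and Nfkb2, were followed in chromatin-associated RNA after addition of tumour necrosis factor (TNF). They were taken by symbol, and all 5 were found among the 45706 gene rows of the count table and passed the filter on low counts, as 15049 rows did. Chromatin-associated RNA holds transcripts not yet released from the chromatin they were made on, so it lies nearer to transcription than total RNA does. The cells were primary mouse embryonic fibroblasts (MEFs) of the C57BL/6 strain, kept overnight in 0.5% serum. The groups were crel-/-rela-/- cells (KO), which lack cRel and RelA, and wild-type (WT) cells. TNF was used at 10 ng/ml, and libraries were taken at 0 min as the control and at 15, 45 and 60 min, 1 per genotype and time. The 8 libraries thus hold no replicates, and the labels do not say how many embryos or cultures gave them. With no untreated library after 0 min, TNF and elapsed time cannot be told apart. The series title asks how RelA governs its target genes in inflammation.

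NF-kB binds DNA as dimers of proteins that share a Rel homology domain. RelA (p65), cRel and RelB also carry a transactivation domain. Nfkb1 and Nfkb2 encode the precursors p105 and p100, whose processing yields the DNA-binding subunits p50 and p52, and whose unprocessed forms act as inhibitors. TNF frees RelA- and cRel-containing dimers from IkB proteins in the cytoplasm within minutes, and several subunit genes are themselves known NF-kB targets.

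Library totals lay between 12359817 and 15607331 counts. The 3 rows with the highest sums took 58.9% to 70.6% of them, which left 3948194 to 5644974 counts for all other genes. The 3 rows were Gm26917 and Gm42418, on chromosome 17, and Malat1, on chromosome 19. All 12 fibroblast markers were detected in every library. Of 14 macrophage and leukocyte markers, 2, 6, 6 and 7 were at 0 in the KO libraries at 0, 15, 45 and 60 min, among them Fcgr1 in all 4, and none was at 0 in any WT library. Their summed level was 7.46 to 9.26 CPM (counts per 1000000 counts of the TMM-scaled library) in KO and 75.7 to 104 CPM in WT. Most of the KO sum came from Cd68, at 5.32 to 6.79 CPM in KO and 5.42 to 8.73 CPM in WT. Fcer1g was at 0.971 to 1.65 CPM in KO and 1.88 to 2.65 CPM in WT. The other markers of this list were each under 1 CPM in every KO library. Cartilage and bone markers summed to 404 CPM in the KO 0 min library, to between 38.7 and 67.4 CPM in KO after TNF and to 24.1 to 32.6 CPM in WT. Epithelial markers summed to 7.71 CPM in the KO 0 min library and to at most 1.05 CPM elsewhere. Endothelial markers summed to 9.09 to 14.7 CPM in KO and to 3.68 to 5.30 CPM in WT. Cldn5 was at 0 in all 8 libraries, and Cdh5 and Tie1 were at 0 in both genotypes at 45 and 60 min. Of 7 endothelial markers listed, 2 were tested. Of these, 2 were called higher in KO at the late times and 1 at 0 and 15 min together. Of 5 cartilage and bone markers tested, 3 were called higher in KO at each. Of all genes, 3.92% were called higher at the late times and 1.78% at the early times. Lymphocyte markers summed to under 1 CPM in every library. In bulk RNA, fewer cells of a type and less RNA per cell cannot be told apart.

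The 5 genes lie apart from each other except for a shared chromosome (mm10). Rela spans chr19:5637483-5648130 and Nfkb2 spans chr19:46304737-46312090, both on the plus strand. Rel spans chr11:23736847-23770970, Relb chr7:19606217-19629438 and Nfkb1 chr3:135584655-135691547, all 3 on the minus strand. Nfkb1 is the longest, with a span of 106893 bases, and Nfkb2 the shortest, with 7354. The counted exon length was 2716 bases for Rela, 7466 for Rel, 3885 for Relb, 12061 for Nfkb1 and 3289 for Nfkb2. Set against GENCODE M21, 65.8% of the counted Nfkb1 bases and 32.8% of those of Relb lie outside the exons of protein-coding transcripts. The Nfkb1 and Relb counts therefore mix exons of coding transcripts with other sequence of the locus. The longest coding transcript of Nfkb2 in that release has 3846 bases, more than the 3289 counted, so part of it was not counted.

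The upstream sequences of Rel, Nfkb2 and Rela are shown because these genes differ in whether a kB element, the DNA element that NF-kB dimers bind, can be read next to the start. They come from RefSeq (GRCm38.p6), run 5′ to 3′ on the gene's strand and stop before the gene as counted here. Capitals mark matches to the kB consensus on either strand, overlapping matches joined. The windows are chr11:23770971-23771219 for Rel (minus strand), chr19:46304487-46304736 for Nfkb2 (plus strand) and chr19:5637291-5637482 for Rela (plus strand).
Rel: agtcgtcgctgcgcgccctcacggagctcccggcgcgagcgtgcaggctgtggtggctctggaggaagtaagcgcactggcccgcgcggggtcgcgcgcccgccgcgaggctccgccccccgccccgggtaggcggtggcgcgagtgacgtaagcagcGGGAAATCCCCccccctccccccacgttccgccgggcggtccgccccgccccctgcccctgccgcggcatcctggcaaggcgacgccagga
Nfkb2: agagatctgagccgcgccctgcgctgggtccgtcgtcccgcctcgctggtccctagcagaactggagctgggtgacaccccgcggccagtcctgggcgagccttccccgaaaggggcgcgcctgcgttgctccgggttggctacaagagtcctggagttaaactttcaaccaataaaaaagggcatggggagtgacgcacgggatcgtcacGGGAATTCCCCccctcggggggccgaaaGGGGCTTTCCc
Rela: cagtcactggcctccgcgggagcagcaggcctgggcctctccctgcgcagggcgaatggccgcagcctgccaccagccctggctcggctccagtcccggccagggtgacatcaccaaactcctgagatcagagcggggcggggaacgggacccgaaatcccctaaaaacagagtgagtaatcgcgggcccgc

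In Rel the capitals begin 92 bases before the start site and hold overlapping matches on both strands. In Nfkb2 one stretch begins 39 bases before the start, and a second, GGGGCTTTCC, begins 11 bases before it. A match GGGACTTTCC stands 10 bases after another annotated start of Nfkb2. The Rela window, 250 bases before to 50 after the start, holds no match, which says only that these letters are not in it. Among all 32851 promoter windows of that length, 8.46% hold the kB consensus. Relb and Nfkb1 are named only.

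Rela, which encodes the main transactivating subunit, stood at 18.3, 21.3, 23.1 and 24.3 CPM in KO at 0, 15, 45 and 60 min, and at 21.6, 29.2, 50.4 and 42.5 CPM in WT. Rel, which encodes cRel, best known from lymphoid and myeloid cells, stood at 28.6, 27.2, 42.7 and 47.5 CPM in KO, and at 10.1, 12.4, 57.6 and 36.5 CPM in WT. Both loci thus gave reads in every KO library. Since the labels do not say what was deleted from either allele, these whole-gene counts are no check of the genotypes. For the same reason, KO and WT counts of Rela and Rel may not cover the same sequence, here and in the genotype comparisons below. For Rela the KO values were lower than WT at each time. For Rel they were higher than WT at 0, 15 and 60 min and lower at 45 min.

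Relb, which encodes the transactivating subunit best known for pairing with p52, stayed between 11.3 and 12.7 CPM in the KO libraries. In WT it stood at 15.3, 25.6, 111 and 102 CPM at 0, 15, 45 and 60 min. Every WT value, 0 min included, lay above every KO value.

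Of the precursor genes, Nfkb1 stood at 46.8, 55.4, 51.9 and 62.6 CPM in KO, and at 69.5, 76.7, 344 and 333 CPM in WT. Nfkb2 stood at 17.8, 18.0, 30.02 and 30.8 CPM in KO, and at 27.5, 49.6, 184 and 175 CPM in WT. For Nfkb1 the KO and WT ranges did not overlap, whereas for Nfkb2 the late KO values lay above the WT 0 min value.

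**Figure D1:**
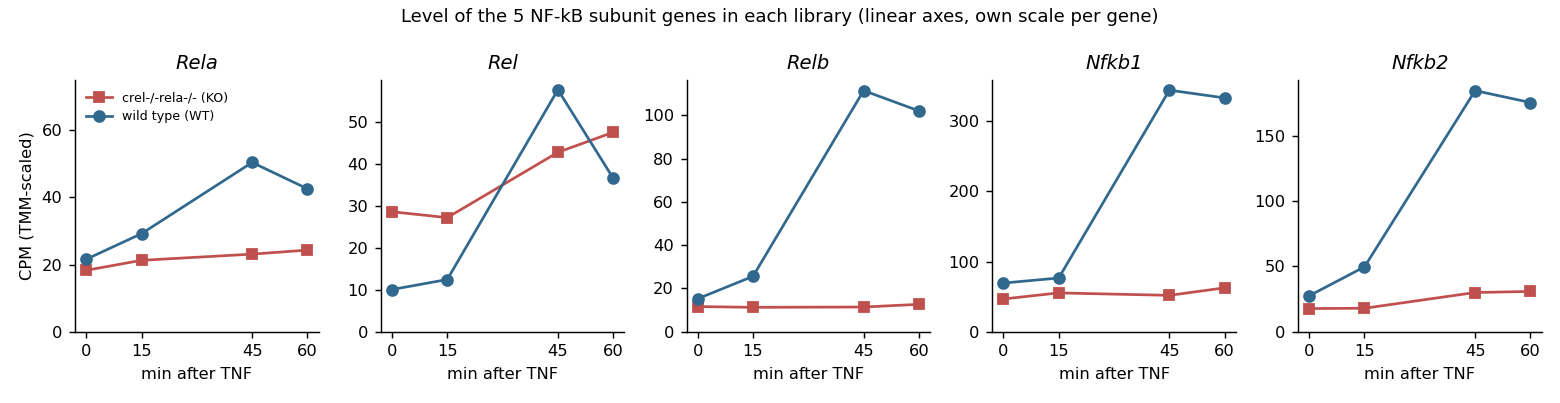
Level of each subunit gene (CPM, TMM-scaled, linear axes with a scale of their own per gene) against time after TNF, with squares for KO and circles for WT, 1 library per point. WT lines climb by 45 min for all 5 genes, and Rel is the gene whose KO line starts above WT, at 28.6 against 10.1 CPM.

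The steps in WT differed between the members. Between 0 and 15 min the log2 ratio was 0.85 for Nfkb2 (95% interval 0.67 to 1.03), 0.75 for Relb (0.50 to 0.99), 0.44 for Rela (0.22 to 0.65) and 0.31 for Rel (-0.016 to 0.63). These intervals, and those of the other single-library ratios, cover counting error only. Nfkb1 was at 0.14, a ratio whose direction turns when libraries are scaled by total counts (-0.19). With that scaling the Rel ratio also falls just below 0. Those of Nfkb2, Relb and Rela then stay above 0 but fall below their intervals. Between 15 and 45 min the log2 ratios were 2.21 for Rel, 2.17 for Nfkb1, 2.12 for Relb, 1.89 for Nfkb2 and 0.79 for Rela. Between 45 and 60 min Rel was at -0.66 (95% interval -0.82 to -0.49) and Rela at -0.24 (-0.40 to -0.084). Relb was at -0.13 (-0.23 to -0.022). Nfkb1 at -0.047 (-0.11 to 0.012) and Nfkb2 at -0.073 (-0.15 to 0.0076) had intervals that include 0. Rel thus had the lowest ratio of the 5 between the last libraries, each of which is a single library.

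The late response was tested as the mean of 45 and 60 min against 0 min. Calls are edgeR quasi-likelihood tests with an adjusted p (Benjamini-Hochberg) under 0.05. In KO, 1 of 5 members rose and 0 fell, where 1.83% of the 15049 genes tested were called, 1.32% higher and 0.518% lower. This was Nfkb2, with a log2 fold change of 0.78 ± 0.18 (SE), a 1.71-fold change, adjusted p = 0.0477. Rel was at 0.66 ± 0.24 (adjusted p = 0.185), Rela at 0.37 ± 0.19 (adjusted p = 0.333), Nfkb1 at 0.29 ± 0.18 (adjusted p = 0.424) and Relb at 0.050 ± 0.19 (adjusted p = 0.923), all in edgeR. The sign of the Relb value turned with total counts as scaling (-0.14). The median of the members was 0.37, beside -0.0054 over all genes. The Nfkb2 call did not hold in 10 of 18 alternatives, which include dropping WT 0 min (adjusted p = 0.0501), KO 45 min (adjusted p = 0.0726) or KO 60 min (adjusted p = 0.0955). With the KO 15 min library as baseline in place of the 0 min library, which stands apart in its cartilage markers, Nfkb2 was at 0.76 (adjusted p = 0.0769, edgeR) and Rel at 0.73 (adjusted p = 0.207). With 0 and 15 min together as baseline, Rel (0.69, adjusted p = 0.0311, edgeR) and Nfkb2 (0.77, adjusted p = 0.0339) were called. Of all genes, 706 were then called higher, in place of 198.

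In WT all 5 members rose, where 5.48% of genes were called, 4.17% higher and 1.31% lower. Relb rose 6.99-fold (log2 fold change 2.81 ± 0.20) and Nfkb2 6.53-fold (2.71 ± 0.19). Nfkb1 rose 4.88-fold (2.29 ± 0.19), Rel 4.68-fold (2.23 ± 0.28) and Rela 2.15-fold (1.11 ± 0.19). The edgeR adjusted p ran from 4.50e-06 for Nfkb2 to 0.00477 for Rela. Their median was 2.29, beside -0.0039 over all genes. Rela was the member with the lowest value. Its call was lost with the 15 min library as WT baseline (0.67, adjusted p = 0.0689), with total counts as scaling (0.89, adjusted p = 0.143) and against a 2-fold threshold.

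The difference between the responses, KO minus WT, was called lower for 3 of 5 members and higher for 0, where 0.498% of genes were called, 0.492% lower and 0.00664% higher. It was -2.76 ± 0.27 for Relb (adjusted p = 0.000277), -1.99 ± 0.25 for Nfkb1 (adjusted p = 0.00239) and -1.93 ± 0.24 for Nfkb2 (adjusted p = 0.00239, all edgeR). Rel was at -1.57 ± 0.35 (adjusted p = 0.0900) and Rela at -0.73 ± 0.27 (adjusted p = 0.453), so a difference for these targeted genes was not detected. Rel passed the threshold without the WT 60 min library (-1.86, adjusted p = 8.01e-05, edgeR) and with 0 and 15 min together as baseline (-1.37, adjusted p = 0.0155). With the 15 min baseline the Nfkb2 difference was -1.10 (adjusted p = 0.155), while Relb (-1.96) and Nfkb1 (-2.10) were called, and with no filter on low counts Relb alone was called. The spread in these tests comes from 45 and 60 min taken as replicates, and the single 0 min libraries carry no spread of their own.

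**Figure D2:**
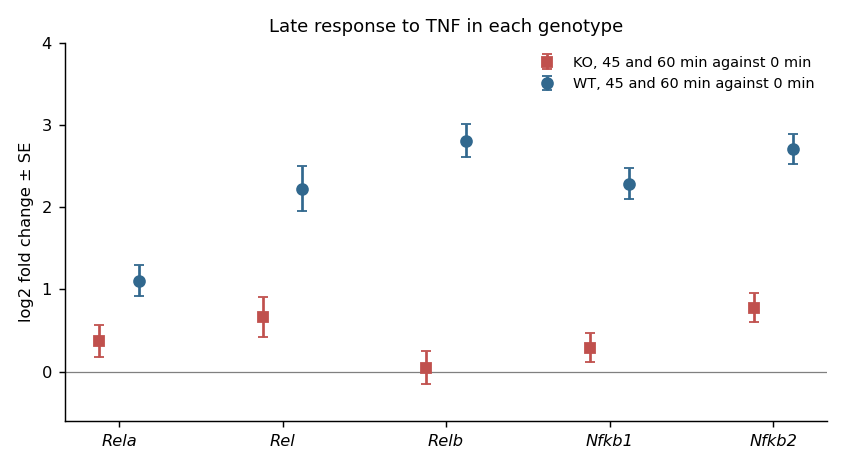
Log2 fold change of the mean of 45 and 60 min against 0 min for each subunit gene, with bars of 1 SE from the edgeR fit; squares are KO and circles WT. In KO the values run from 0.050 (Relb) to 0.78 (Nfkb2), and in WT from 1.11 (Rela) to 2.81 (Relb).

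At the late times themselves, 4 of 5 members were lower in KO than in WT and 0 higher, where 11.8% of genes were called, 7.88% lower and 3.92% higher. Relb was 8.84-fold lower (log2 fold change -3.14 ± 0.16, adjusted p = 7.82e-08), Nfkb1 5.91-fold lower (-2.56 ± 0.15, adjusted p = 3.06e-07) and Nfkb2 5.91-fold lower (-2.56 ± 0.14, adjusted p = 1.78e-07). Rela was 1.96-fold lower (-0.97 ± 0.15, adjusted p = 0.00104), and short of the threshold when tested against a 2-fold change. Unlike Relb, Nfkb1 and Nfkb2, Rela is targeted in KO, and how much of its counted sequence remains there is not given. Rel was at -0.062 ± 0.19 (adjusted p = 0.886, edgeR; -0.36 to 0.31 across alternatives), and its single-library ratios stood on either side of 0. They were -0.43 at 45 min (95% interval -0.59 to -0.27) and 0.38 at 60 min (0.21 to 0.55).

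Before and shortly after TNF, at 0 and 15 min together, Rel was called higher in KO and 3 members were called lower. Rel was 2.48-fold higher in KO than in WT (log2 fold change 1.31 ± 0.20, adjusted p = 0.000519, edgeR), where 5.65% of genes were called, 1.78% higher and 3.87% lower. The KO to WT log2 ratio of Rel was 1.51 at 0 min (95% interval 1.24 to 1.78) and 1.13 at 15 min (0.85 to 1.40). Leaving out any 1 library gave 1.17 to 1.47 for Rel, with the call kept each time, and 1.28 without the KO 0 min library (adjusted p = 0.00697, edgeR). Lower in KO were 3 members, Nfkb2 at -1.11 ± 0.20 (adjusted p = 0.00281), Relb at -0.83 ± 0.20 (adjusted p = 0.0184) and Nfkb1 at -0.52 ± 0.14 (adjusted p = 0.0430). Rela was at -0.36 ± 0.16 (adjusted p = 0.288, edgeR).

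The early difference of Nfkb2 and Relb includes their step in WT by 15 min. At 0 min alone the KO to WT log2 ratio was -0.63 for Nfkb2 (95% interval -0.85 to -0.41), -0.57 for Nfkb1 (-0.71 to -0.43), -0.39 for Relb (-0.67 to -0.11) and -0.24 for Rela (-0.47 to -0.0088). Without the WT 15 min library, Nfkb2 was at -0.62, a called value (adjusted p = 0.0400, edgeR), Relb at -0.41 (adjusted p = 0.285) and Nfkb1 at -0.45 (adjusted p = 0.205). Dropping KO 0 min (-0.85) or KO 15 min (-0.81) also ended the Relb call. The Nfkb1 call ended on dropping WT 0 min (-0.59), KO 0 min (-0.40) or KO 15 min (-0.64). Of all genes, 3.87% were called lower in KO at these early times and 7.88% at the late times, with medians of 0.013 and 0.012. The macrophage and leukocyte markers were lower in KO for 11 of 13 tested at the early times, with a median of -4.97. At the late times it was 11 of 13, with a median of -5.92. Their summed level at 0, 15, 45 and 60 min was 9.26, 9.26, 7.46 and 8.25 CPM in KO, and 104, 93.2, 88.5 and 75.7 CPM in WT. The part of these and of the endothelial, epithelial and cartilage markers in the differences of the subunit genes between genotypes was not tested.

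**Figure D3:**
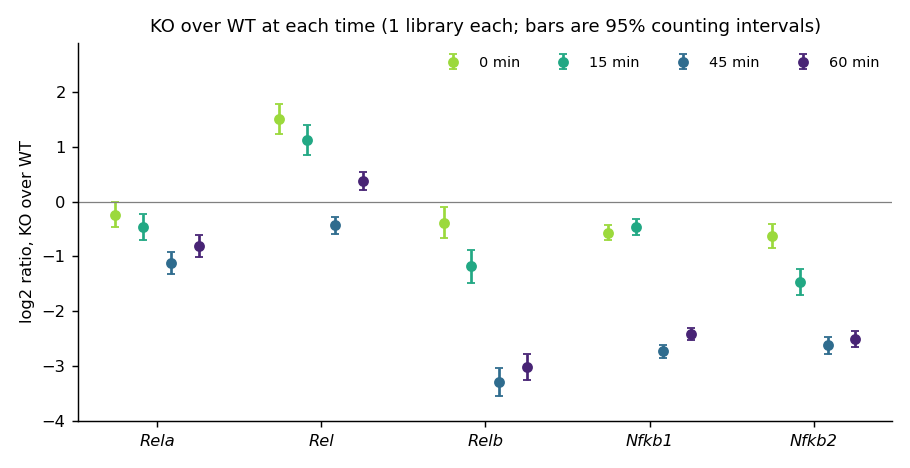
Log2 ratio of KO over WT for each subunit gene at 0, 15, 45 and 60 min, 1 library per genotype and time, with bars for the 95% counting interval. Rel lies above 0 at 0, 15 and 60 min, and the other 4 genes lie below 0 at all 4 times, down to -3.28 for Relb at 45 min.

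Over all 4 times, with time as a block, 4 members were lower in KO and 0 higher, where 16.3% of genes were called, 9.44% lower and 6.81% higher. They were Relb (-2.03 ± 0.41, adjusted p = 0.00819), Nfkb2 (-1.85 ± 0.28, adjusted p = 0.00144), Nfkb1 (-1.56 ± 0.35, adjusted p = 0.0140) and Rela (-0.66 ± 0.13, adjusted p = 0.00807). Rel was at 0.59 ± 0.25 (adjusted p = 0.143, edgeR). This model fits the same difference at all times, so its SE includes any change of the difference over time. For Relb the KO to WT log2 ratio was -0.39 at 0 min and -3.28 at 45 min. Rel passed the threshold when either 45 min library was dropped (0.97 each), the time at which its ratio was below 0. The Nfkb1 call ended on dropping WT 45 min (-1.15), KO 45 min (-1.15) or KO 60 min (-1.24). With robust empirical Bayes Rela alone was called. DESeq2 did not call Nfkb1 (adjusted p = 0.0514), and without the time block edgeR did not call Rela (adjusted p = 0.0945).

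Levels of the members can be set against each other only per length, here as CPM per kb of counted exon. The full exon length was used for Rela and Rel in KO too, where both are targeted and the deleted part is not given. Their KO values, and ranks that involve them, carry that limit. In KO, Rela was the highest at 0 and 15 min (6.73 and 7.83 CPM per kb), with an interval that overlapped that of Nfkb2 (5.40) at 0 min, and Nfkb2 and Rela shared the top at 45 min (9.13 and 8.51) and 60 min (9.38 and 8.95), with counting intervals that overlap. Relb was the lowest of the 5 in every KO library, at 2.91 to 3.26 CPM per kb, with an interval that overlapped that of Rel at 15 min alone. In WT, Nfkb2 was the highest in every library, at 8.36, 15.1, 56.0 and 53.3 CPM per kb at 0, 15, 45 and 60 min. Rela (7.95 CPM per kb) overlapped it at 0 min alone. Rel was the lowest in every WT library, at 1.35, 1.67, 7.72 and 4.90 CPM per kb. Relb and Nfkb1 had overlapping intervals in WT at 15, 45 and 60 min, for example 28.7 and 28.6 CPM per kb at 45 min.

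The summed per-length level of the 5 genes was 22.8, 24.4, 30.6 and 33.1 CPM per kb in KO at 0, 15, 45 and 60 min, and 27.3, 40.5, 140 and 128 in WT. The sums thus lay nearer to each other at 0 min than at 45 min. At 0 min Rel was higher in KO (3.83 against 1.35 CPM per kb in WT), and Rela, Relb, Nfkb1 and Nfkb2 were lower. The share of Rel in that sum was 14.9% to 19.2% in the KO libraries and 3.83% to 5.53% in the WT libraries. The share of Rela was 27.0% to 32.0% in KO, whereas in WT it was 29.1%, 26.6%, 13.3% and 12.3% across the 4 times. The share of Nfkb2 in WT was 30.6%, 37.3%, 40.2% and 41.7%, and in KO it lay between 22.4% and 29.8%. The precursor genes Nfkb1 and Nfkb2, summed, stood at 0.684 to 0.784 of the sum of Rela, Rel and Relb in the KO libraries and at 1.07, 1.13, 1.54 and 1.73 of it in WT. These are transcript levels on chromatin, with Nfkb1 and Relb counted partly outside coding transcripts, and say nothing of protein. The KO sums, shares and ratios include the targeted genes Rela and Rel, taken at full exon length. The order depends on the length used. With gene span as the length, Nfkb2 was the highest in all 8 libraries, Nfkb1 in place of Relb was the lowest in KO at 0 and 45 min, and Rel was again the lowest in WT. The share of Nfkb1 in KO at 0 min was then 7.41% in place of 16.99%, and that of Nfkb2 in WT at 0 min 50.8% in place of 30.6%.

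**Figure D4:**
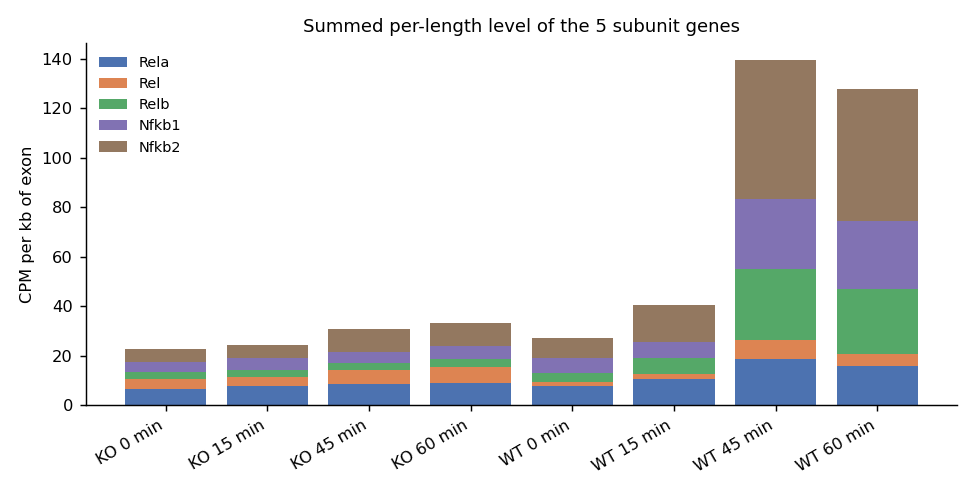
Stacked bars of the per-length level (CPM per kb of counted exon, linear axis from 0) of the 5 subunit genes in each library, KO libraries left of WT libraries. The WT bars at 45 and 60 min reach 140 and 128 CPM per kb, and no other bar exceeds 40.5.

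A gene model inside Nfkb1 gave a second readout of that locus. Gm43430 (chr3:135650670-135654566, minus strand) lies in an intron of Nfkb1 on the same strand, 36981 to 40877 bases from its start, and shares no counted exon base with it. It had 207, 118, 186 and 187 counts in KO at 0, 15, 45 and 60 min, and 237, 230, 1306 and 819 in WT. Its late response was 0.22 ± 0.26 in KO (adjusted p = 0.713) and 2.27 ± 0.27 in WT (adjusted p = 0.000356), with a difference of -2.05 ± 0.36 (adjusted p = 0.0280, edgeR), close to the values of Nfkb1. Between 45 and 60 min in WT the log2 ratio of Gm43430 was -0.66 (95% interval -0.79 to -0.53), against -0.047 (-0.11 to 0.012) for Nfkb1, and these counting intervals do not overlap. Of the single libraries concerned no test could be made.

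**Figure D5:**
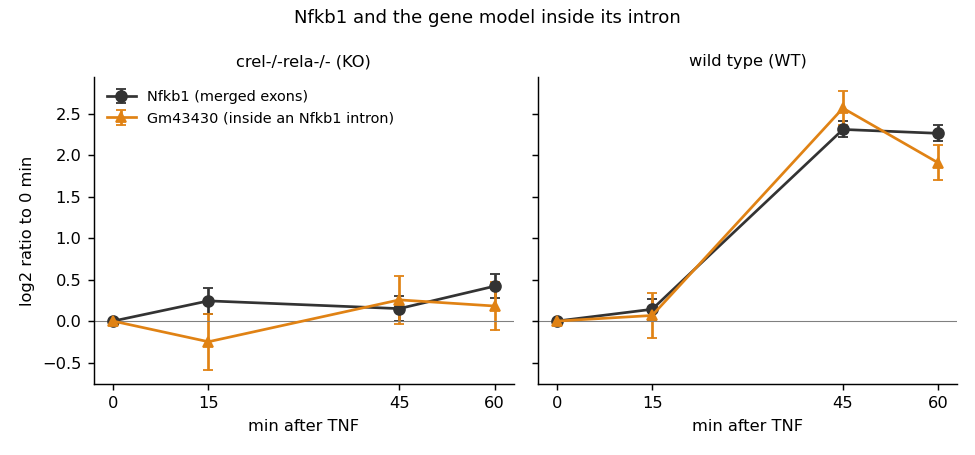
Log2 ratio to the 0 min library of the same genotype for Nfkb1 and for Gm43430, which lies in its intron, against time after TNF, with KO on the left and WT on the right and bars for the 95% counting interval. In WT both are above 2.3 at 45 min, and at 60 min Gm43430 is at 1.91 and Nfkb1 at 2.26.

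The other genes next to the members did not pass the test. Sipa1, 3055 bases from Rela, had a late response of -0.31 in KO and -0.27 in WT. Pus10, 3971 bases from Rel, was at -0.35 in KO and -0.42 in WT. Clasrp and Clptm1, which flank Relb at 1749 and 2143 bases, were at -0.20 and 0.18 in KO and at -0.22 and 0.25 in WT. Psd, which overlaps the end of Nfkb2 by 4 bases on the opposite strand, had 10 to 18 counts in KO and 17 to 23 in WT. None of these 5 genes was called in either late response, in the difference or at the early or late times between genotypes, with adjusted p from 0.260 upward in edgeR. Gm23827, near Rel, had 0 counts in all libraries.

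Around the subunits, the pathway was counted from lists chosen with earlier results of these data known. Of all genes tested, 1.83% were called in the late KO response, 4.17% rose in the late WT response and 0.492% had a response called lower in KO. Of 7 genes for IkB proteins, which hold NF-kB in the cytoplasm or bind it in the nucleus, none was called in the late KO response and 6 rose in WT, with a response called lower in KO for 5. Nfkbia, the classical inhibitor, was at 0.14 ± 0.24 in KO and 3.94 ± 0.25 in WT, and Nfkbie at -0.081 ± 0.33 and 4.50 ± 0.24. Of 17 genes of the IKK complex and the TNF receptor signal, none was called in KO and 1 (5.88%) rose in WT, a share near that of all genes. This was Birc2, a ubiquitin ligase of the receptor complex, at -0.21 ± 0.18 in KO and 1.64 ± 0.19 in WT, and Tradd, the receptor's adaptor, was at -0.54 ± 0.27 and 0.34 ± 0.29 and not called.

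The pathway that leads to RelB and p52 had 9 of 12 listed genes tested. None was called in the late KO response and 5 rose in WT, and the response was called lower in KO for 2, against 1.83%, 4.17% and 0.492% of all genes. Birc3, a ubiquitin ligase that keeps this pathway off, was at -0.43 ± 0.24 in KO and 2.80 ± 0.23 in WT, and Traf3, which acts with it, at -0.56 ± 0.30 and 1.75 ± 0.31. Of 9 ubiquitin-editing feedback genes none was called in KO and 2 rose in WT, Tnfaip3 (0.30 ± 0.42 in KO, 5.39 ± 0.35 in WT) and Tnip1 (-0.21 ± 0.19 in KO, 1.97 ± 0.19 in WT). Of 14 cofactors and modifiers of RelA none was called in KO and 1 (7.14%) rose in WT, against 4.17% of all genes. This was the kinase gene Pim1, at 0.71 ± 0.24 in KO and 3.16 ± 0.28 in WT. Pdlim2, a ubiquitin ligase for RelA, was at 0.24 ± 0.26 and -0.48 ± 0.24 and not called. Medians of the lists in the late WT response were 3.14 for the IkB genes, 0.91 for the pathway to RelB and p52, 0.19 for the feedback genes, 0.048 for the IKK list and -0.081 for the cofactors, beside 2.29 for the subunit genes.

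Genes with the most similar profiles were ranked by Pearson r of log2(CPM + 1) over the 8 libraries, among 9160 genes averaging 50 counts or more. The 8 points share libraries and scaling, and r is given as a description. For Relb the nearest were Cxcl10, Nfkbie, Sik1, Tnfaip2 and Rab12 (r = 0.994 to 0.997), and for Nfkb1 Rhbdf2, Tnfaip2, Csf1, Sun2 and Rab12 (r = 0.992 to 0.994). For Nfkb2 they were Atxn3, Sik1, Slco4a1, Il1r1 and Papolb (r = 0.981 to 0.994), and for Rela Lmbrd1, Trp53, Ccl20, Atxn3 and Ino80d (r = 0.973 to 0.981). For Rel, with its higher KO start, they were Gprc5a, Acbd3, Il4i1, Slc35a3 and Clk3 (r = 0.948 to 0.975). No gene of the Rel set was in another member's set. The size of a change does not enter r. Late WT responses ran from 0.53 (Atxn3) to 2.71 (Slco4a1) in the Nfkb2 set, beside 2.71 for Nfkb2. In the Rela set they ran from 0.53 (Atxn3) to 6.21 (Ccl20), beside 1.11 for Rela. Ccl20 had 0, 1, 0 and 1 counts in KO, and Slco4a1 had 1, 1, 15 and 13. The difference between the late responses, KO minus WT, was 1.28 for Slco4a1, beside -1.93 for Nfkb2. Gprc5a, an orphan receptor gene, had 79, 46, 70 and 69 counts in KO and 33, 37, 76 and 65 in WT. With Spearman's rho in place of r, 2 of the 25 entries of these sets, in which some genes stand in 2 sets, were again among the 5 nearest of their member.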

How the data were processed

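Per the labels' protocols, chromatin-associated RNA was depleted of ribosomal RNA and made into stranded single-end libraries. The submitters' processing notes name cutadapt 1.12, STAR, featureCounts 1.5.0 and DESeq2 with build mm10. Per the file headers, the authors deposited raw whole-number counts of each gene, beside coordinates and exon lengths. Not given in the sources used here are the strand setting, the treatment of multi-mapped reads and the annotation release. Symbols were matched by identifier.

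The 15049 genes that reached 10 counts in 2 or more libraries entered the quasi-likelihood test of edgeR 4.0.16 (R 4.3.3), with TMM factors of 0.818 to 1.21, adjusted by Benjamini-Hochberg over all tested genes, with a threshold of 0.05. Late contrasts came from 6 cell means (0, 15 and 45 with 60 min by genotype, 2 residual degrees of freedom), the early genotype contrast from 4 (0 with 15 and 45 with 60 min, 4 residual degrees of freedom), and the contrast over all times from genotype with time as a block (3 residual degrees of freedom). SE is the log2 fold change over the square root of F. CPM uses TMM-adjusted library sizes. Single-library ratios carry exact Clopper-Pearson intervals at 95%, and levels per kb exact Poisson intervals. PCR copies are not independent molecules, so intervals cover counting error only, and p-values measure only the spread between these libraries. A count of 0 allows up to 3 counts, or 0.192 to 0.243 CPM of the total. No pair of libraries was a duplicate (chi-square per degree of freedom 8.43 to 56.5).

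The members and lists were chosen with earlier results of these data known. Named genes are the members, the 5 nearest profiles of each without predicted gene models, rows that overlap a member or lie within 10 kb on either side, and the 2 genes of each pathway list with the smallest p for the difference. Fits were run on simulated counts, drawn with the same spread for all genes and no change between libraries except known changes put in. The simulation thus does not show how the tests behave when different times stand in for replicates. Alternatives were DESeq2 1.42.0, limma-voom (limma 3.58.1), robust empirical Bayes, a 2-fold threshold, RLE and total-count scalings, other filters, baselines and groupings, and dropping each library in turn. Plots were made in matplotlib 3.10.9.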

Additional observations from a re-analysis of the deposited data

Results flagged for a closer look

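For 3 subunit genes the late response to TNF differed between the genotypes when the difference itself was tested in edgeR, with KO minus WT at -2.76 for Relb, -1.99 for Nfkb1 and -1.93 for Nfkb2. The intronic gene model Gm43430 had a difference of -2.05. The pathway genes were named for having the 2 smallest p for this difference in their list. The difference was -3.79 for Nfkbia, -4.58 for Nfkbie, -1.85 for Birc2, -3.23 for Birc3, -2.30 for Traf3, -5.09 for Tnfaip3, -2.18 for Tnip1 and -2.45 for Pim1, all called, while Tradd at -0.88 and Pdlim2 at 0.72 were not called. Groups of 1 library allowed no search for outlying samples.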

How the results depend on the processing

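With 1 library per genotype and time, a late library left out leaves 1 that is assumed to vary like the others, and without a 0 min library the late response of that genotype has no value. No paired analysis was possible because the labels carry no replicate numbers, and KO and WT were matched by time alone, as a block in the comparison over all times. The number of members higher in the late KO response was 1, and 0 with DESeq2, limma-voom, a 2-fold threshold, total counts, total counts without the 3 highest rows, no filter and the 15 min baseline, 2 with 0 and 15 min together, and 0 to 1 with a library left out. Members with a lower response in KO were 3, and 1 with a 2-fold threshold or no filter, 2 with the 15 min baseline, 4 with 0 and 15 min together, and 3 to 4 with a library left out. At the early times 1 was higher and 3 lower in KO, 0 and 0 with a 2-fold threshold, 2 lower with total counts, and 1 to 3 lower with a library left out. Over all times 4 were lower, 3 with DESeq2 or no time block, 1 with robust empirical Bayes, 0 with a 2-fold threshold and 3 to 4 with a library left out, and the 0 higher became 1 with no filter and 0 to 1 with a library left out. Total counts turned some ratios whose interval includes 0, such as that of Rel in WT at 15 to 0 min. Of ratios whose interval excludes 0, total counts turned that of Rela in KO at 45 to 0 min (-0.053). Total counts also turned that of Nfkb1 at 15 to 0 min in KO (-0.10) and WT (-0.19). They moved the median of all genes to -0.21 in both late responses and gave 304 genes higher and 280 lower in WT in place of 628 and 197, and 57 and 155 in KO in place of 198 and 78. Across alternatives, genes higher in the late WT response ran from 109 (2-fold threshold) to 1097 (0 and 15 min baseline), and genes with a lower response in KO from 14 (no filter) to 179 (0 and 15 min baseline), in place of 74. The causes were not tested. The late WT calls of Rel, Relb, Nfkb1 and Nfkb2 and the late genotype calls of Relb, Nfkb1 and Nfkb2 kept direction and threshold in all 18 alternatives run for each. Relb did so for the difference in all 17.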
